A study of Mus musculus with 4 samples.

Results

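The ErbB receptors and their ligands were followed through chromatin accessibility in mouse embryonic fibroblasts (MEFs) with and without HAT1, the acetyltransferase of newly made histone H4. The 10 genes were the receptors Egfr, Erbb2, Erbb3 and Erbb4 and the ligands Nrg1, Ereg, Areg, Hbegf, Btc and Tgfa. Their sites were chosen by position: an accessible region was taken if it overlapped the body of a member gene or lay within 50 kb of its transcription start site (TSS). This gave 117 of the 82325 sites, 45 around the receptors and 72 around the ligands. The family itself was chosen with earlier KO against WT results of these data known, among them the rise at 1 intronic Nrg1 site. All KO against WT values below are therefore descriptions, and no support is drawn from how many members differed.

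The 4 ATAC-Seq libraries came from immortalized MEF lines on a C57bl6 background, 2 lines labelled HAT1 WT (HAT1+/+) and 2 labelled HAT1 KO (HAT1-/-). The study methods describe immortalization with the SV40 T antigen, which all 4 lines would then carry, and no treatment separated the groups. Each library was made from a different line, so a difference between lines and a difference between genotypes can be told apart only through 2 lines a genotype. Whether a line is a single clone is not given in the sources used here. With 2 against 2, an exact permutation test cannot give a two-sided p under 0.333.

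ErbB receptors are membrane tyrosine kinases that pair when a ligand binds. Egfr binds Ereg, Areg, Hbegf, Btc and Tgfa, while Erbb3 and Erbb4 bind neuregulins such as Nrg1. Erbb4 also binds Hbegf, Btc and Ereg. Erbb2 has no known ligand of its own and serves as the partner of the other receptors, and Erbb3 has little kinase activity. The ligands are made as membrane-bound precursors that proteases cut free. Fibroblasts use Egfr as a main route for growth signals.

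A site value is the deposited normalized count, read over the whole site. Library totals lay between 8008069 and 8516263 normalized counts. The depth behind them was recovered only approximately, at 9420000 and 11400000 reads for the WT libraries and 7830000 and 5660000 for the KO libraries, in replicate order, so low values were least precise in the KO libraries. The TSS site of Hat1, the deleted gene, read 390 and 384 normalized counts in WT and 438 and 368 in KO; an accessible start does not show whether the gene makes protein, so the genotype labels were not checked by it. Of 10 fibroblast marker genes, 9 had a site at the TSS, with summed values of 2638 to 3174 per library, while Pdgfra had none. Epithelial markers summed to 112 to 196 with no site at Krt5 or Krt14, Schwann cell markers to 198 to 223 with none at Sox10, and endothelial markers to 203 to 312. Macrophage markers summed to 17 to 31 with none at Ptprc, Adgre1 or Spi1, and 0 of 4 muscle markers had a site.

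Sequences are shown for intronic sites of Nrg1 and Erbb4 and for the bases before the 5′ ends of Areg and Btc. They were read from the RefSeq genome of GRCm38.p6 (mm10), on the strand of the gene, 5′ to 3′. Capitals mark letters of 5 motifs, searched on both strands: AP-1 (TGANTCA), TEAD (GGAATG), the cyclic AMP response element or CRE (TGACGTCA), the GC box (GGGCGG) and the TATA box (TATAAA). The first pair are the central 300 bases of the intronic Nrg1 site that was higher in KO (chr8:32844614-32844913, minus strand) and of the strongest Erbb4 site, which was low in 1 library (chr1:68720860-68721159, minus strand).
Nrg1 intron: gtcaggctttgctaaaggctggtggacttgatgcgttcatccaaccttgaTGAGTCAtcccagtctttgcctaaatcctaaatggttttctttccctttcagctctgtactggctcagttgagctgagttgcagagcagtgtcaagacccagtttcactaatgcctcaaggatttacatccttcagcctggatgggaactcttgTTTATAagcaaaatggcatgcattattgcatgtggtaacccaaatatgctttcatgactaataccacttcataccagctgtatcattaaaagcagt
Erbb4 intron: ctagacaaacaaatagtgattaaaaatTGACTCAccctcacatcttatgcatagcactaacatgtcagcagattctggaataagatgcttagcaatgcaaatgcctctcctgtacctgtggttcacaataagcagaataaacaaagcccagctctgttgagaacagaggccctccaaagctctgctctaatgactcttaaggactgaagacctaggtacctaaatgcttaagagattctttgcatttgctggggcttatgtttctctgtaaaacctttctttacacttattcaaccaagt
The Nrg1 stretch holds 1 AP-1 match and 1 match to the TATA letters. The Erbb4 stretch holds 1 AP-1 match and no other. Among all 82325 sites, 37.7% had an AP-1 match in the central 300 bases and 14.6% a match to the TATA letters.

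The next pair are the 250 bases before the annotated 5′ end of Areg and Btc, chromosome 5 ligand genes whose sites were mostly lower in KO. They are Areg (chr5:91139349-91139598, plus strand) and Btc (chr5:91402995-91403244, minus strand).
Areg promoter: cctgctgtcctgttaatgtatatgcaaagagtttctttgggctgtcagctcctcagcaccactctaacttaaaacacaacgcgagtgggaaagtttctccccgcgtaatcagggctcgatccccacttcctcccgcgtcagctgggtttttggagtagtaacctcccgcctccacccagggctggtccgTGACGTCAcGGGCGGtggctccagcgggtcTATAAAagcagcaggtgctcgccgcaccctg
Btc promoter: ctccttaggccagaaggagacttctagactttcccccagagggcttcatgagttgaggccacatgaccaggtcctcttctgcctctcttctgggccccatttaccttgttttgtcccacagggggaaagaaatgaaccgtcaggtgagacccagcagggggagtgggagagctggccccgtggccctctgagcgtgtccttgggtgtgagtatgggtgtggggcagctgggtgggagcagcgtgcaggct
Areg held 1 CRE, 1 GC box and 1 TATA match, and Btc held none of the 5 motifs. Over the same 250 bases of 21911 protein-coding genes, 11.5% held the TEAD letters, 1.97% the CRE, 39.0% the GC box, 11.5% the TATA letters and 6.06% the AP-1 letters. A match is a stretch of letters and not evidence that a factor binds.

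Across the family, 1 site was called higher in KO and 0 lower, where a call required an unadjusted limma p under 0.01 and an absolute log2 difference of at least 1. Over all sites, 0.0705% were called higher and 0.302% lower. Calls rest on unadjusted p-values: the adjusted limma p (Benjamini-Hochberg over all sites) was 1 at every member site. An unadjusted limma p under 0.05 was found at 5 of 117 (4.27%, against 3.13% of all sites). All differences are KO minus WT on the log2(value + 1) scale, given with the standard error (SE) of the limma model. The median difference of the 117 sites was 0.04, beside 0.01 for all sites.

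Both KO libraries lay below both WT libraries at 19 member sites (16.2%, against 14.3% of all sites) and above them at 14 (11.97%, against 14.6%). At the other member sites the genotypes overlapped. Differences of at least 1 in size were found at 12 member sites, 10.3% against 6.42% of all sites, and 6 of those 12 lay in Erbb4. The WT replicates lay further apart at the members than at all sites. The median absolute difference between the WT libraries was 0.49 at member sites and 0.34 at all sites, and between the KO libraries 0.46 and 0.43. Without the 8 Erbb4 sites the member medians were 0.42 and 0.42, so that the KO replicates were then no further apart than at all sites.

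No member site lay in a window of 25 consecutive sites with a mean difference under -0.58, the cutoff by which the study defines its HAT1-dependent accessibility domains. Such windows held 3.4% of all sites. The study listed its domains from primary MEFs and joined nearby regions, whereas the windows here come from the immortalized lines. Whether a member lies in a domain of the study was not tested. By position, 39 member sites were within 3 kb of an annotated TSS, 56 were intronic, 21 intergenic and 1 exonic. Introns held 47.9% of the member sites and 31.1% of all sites. The site rule takes whole gene bodies, so the member share depends on that rule. The median member site had a mean value of 47.8 normalized counts, against 52 for all sites.

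**Figure D1:**
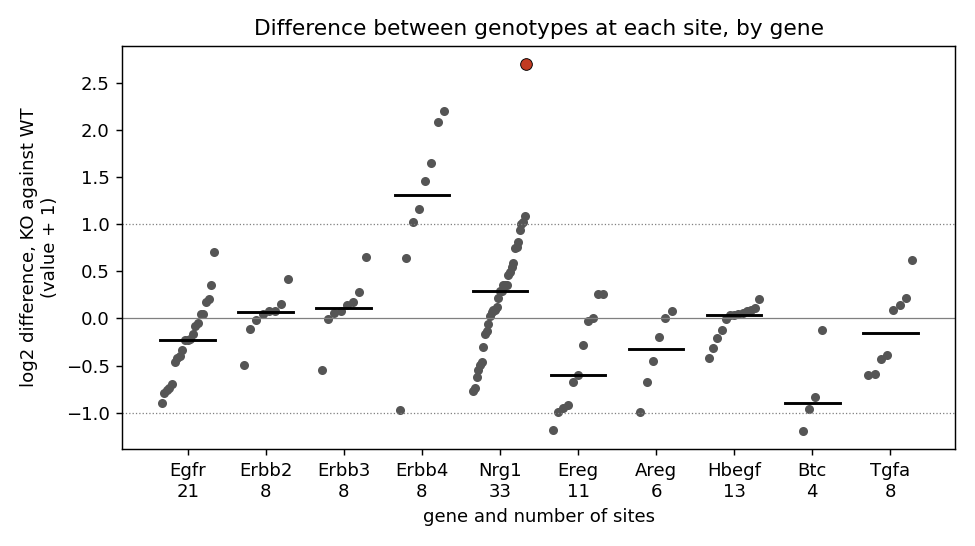
Log2 difference (KO minus WT, log2(value + 1) scale) of each site, by gene, 1 point per site, with a bar at the median of the gene and the number of sites under its name. Bars lie below 0 for Btc at -0.90, Ereg at -0.60, Areg at -0.33, Egfr at -0.23 and Tgfa at -0.15, and are highest for Erbb4 at 1.31, and the red point is the called Nrg1 site at 2.70.

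At the start sites, accessibility per kb of site set the family in an order with Hbegf first and the Erbb4, Btc and Nrg1 starts last. As mean ± SD over the 4 libraries, Hbegf had 404 ± 57.4 normalized counts per kb, Ereg 294 ± 129, Erbb2 293 ± 11.6 and Egfr 255 ± 46.9. Erbb3 followed with 199 ± 21.1 and Areg with 146 ± 22. The other 4 were low: Tgfa had 86.3 ± 31.4, Erbb4 73.5 ± 68.5, Btc 70.3 ± 36.7 and Nrg1 69.8 ± 23.5. The Nrg1 value is that of its annotated 5′ end alone. An internal Nrg1 start 875 kb into the gene had a mean of 260 normalized counts per kb. Neighbours in this order overlapped in their library ranges, except that Erbb3 lay above Areg and Areg above Tgfa. Among all sites within 3 kb of a TSS, Hbegf stood at the 89.9th percentile of this measure and the Nrg1 start at the 6.94th.

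**Figure D2:**
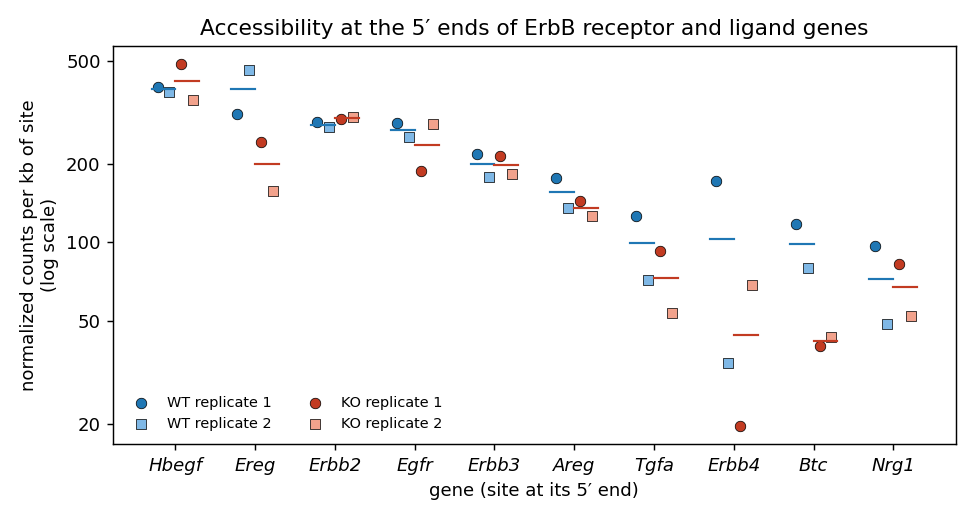
Normalized counts per kb of site (log axis) at the strongest site by the TSS of each gene, 1 point per library (WT in blues, KO in reds) with a bar at the mean of each genotype. Hbegf has the highest mean over all libraries, with points from 354 to 486 per kb that overlap those of Ereg. At Ereg and Btc both WT points lie above both KO points.

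Egfr, the receptor of the EGF-like ligands, lies at chr11:16752203-16918158 on the plus strand (ENSMUSG00000020122.16) and had 21 sites, 19 of them in its body. Its TSS site (chr11:16751954-16753316) read 394 and 346 normalized counts in the WT libraries and 257 and 391 in the KO libraries, so KO replicate 1 was lowest and KO replicate 2 fell among the WT values. The difference was -0.22 (SE 0.22). The same library was low along the gene: the median difference from the WT mean was -0.51 for KO replicate 1 and -0.06 for KO replicate 2. Summed over the 21 sites, Egfr had 1466 ± 1.41 normalized counts in WT and 1330 ± 282 in KO (SD, n = 2 each).

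Of the Egfr sites, 4 had both KO libraries below both WT libraries (19.0%, against 14.3% of all sites) and 3 had them above (14.3%, against 14.6%). The median difference of the 21 sites was -0.23. Both KO libraries were lower at an intronic site 18.1 kb into the gene (chr11:16770112-16770422), with 33 and 28 in WT and 14 and 18 in KO, and at a site 155 kb into the gene (chr11:16906950-16907445), with 40 and 66 in WT and 32 and 27 in KO. Between them, 114 kb into the gene (chr11:16866484-16866911), both KO libraries were higher, with 33 and 21 in WT and 38 and 50 in KO. Without KO replicate 1, the log2 ratio of the summed Egfr signal was 0.06, against -0.14 with all libraries.

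Erbb2, the receptor that partners the others, lies at chr11:98412470-98437716 on the plus strand (ENSMUSG00000062312.5) among closely spaced genes, and 6 of its 8 sites were nearer to the TSS of another gene. Its own TSS site (chr11:98412160-98413065) read 264 and 251 in WT and 271 and 275 in KO. The KO values were both above the WT values, yet the difference was 0.08 (SE 0.16), smaller than its error. The largest positive difference of the 8 sites was 0.42 (SE 0.24), at a site whose nearest TSS is that of Pgap3, a neighbouring gene. Summed over 8 sites, WT had 1001 ± 66.5 and KO 1075 ± 4.95 normalized counts (SD, n = 2 each).

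Erbb3, the receptor with little kinase activity, lies at chr10:128567523-128589652 on the minus strand (ENSMUSG00000018166.8) and likewise had 5 of 8 sites nearer to other genes. Its TSS site (chr10:128589278-128590728) read 319 and 260 in WT and 311 and 265 in KO. The genotypes overlapped, with an SE of 0.18 for a difference that rounds to 0. Both KO libraries lay above both WT libraries at 1 of the 8 sites (12.5%, against 14.6% of all sites) and below at 0 (against 14.3%). That 1 site was near Zc3h10 (chr10:128546362-128546595), with 85 and 81 in WT and 115 and 89 in KO.

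Erbb4, a neuregulin receptor known best from heart and brain, lies at chr1:68032186-69108059 on the minus strand (ENSMUSG00000062209.15). It had 8 sites in a body of 1076 kb, or 0.744 per 100 kb, against 2.81 per 100 kb for Nrg1, a gene of nearly the same length. The strongest was intronic, 387 kb into the gene (chr1:68720556-68721462), with 147 and 13 normalized counts in the WT libraries and 121 and 167 in the KO libraries. WT replicate 2 stood apart from the other 3 libraries, and WT replicate 1 fell between the KO values. The difference of 1.65 had an SE of 1.01.

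The same library was low across the gene. WT replicate 2 was at least 2-fold below each of the other 3 libraries at 7 of 8 Erbb4 sites, all 7 intronic ones, while this held for 1.14% of all sites. At the 7 intronic sites its values summed to 33, against 396 in WT replicate 1, 228 in KO replicate 1 and 480 in KO replicate 2. The median difference of WT replicate 2 from the mean of the others was -3.16 at these sites. In the 2 Mb beyond the 3′ end of the gene it was 0.15 over 41 sites, and in the 2 Mb beyond the 5′ end 0.06 over 45 sites. Of these flanking sites, 1 on the 3′ side had WT replicate 2 at least 2-fold below each other library. Inside the gene the low sites lay 320 to 606 kb from the TSS, and the site by the TSS was not among them.

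The KO against WT difference of Erbb4 turned on that library. Its median over 8 sites was 1.31 with all libraries, -0.54 without WT replicate 2 and 3.15 without WT replicate 1. The site nearest to the TSS (chr1:69106942-69107145) was weak in all libraries, with 35 and 7 in WT and 4 and 14 in KO, and had a difference of -0.97 (SE 1.04). KO replicate 1 was the lowest there. WT replicate 2 was also at least 2-fold below each other library at 3 of 33 Nrg1 sites, where 1.14% of all sites were. The Nrg1 site called higher in KO was among them. What sets WT replicate 2 apart at these sites was not tested.

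**Figure D3:**
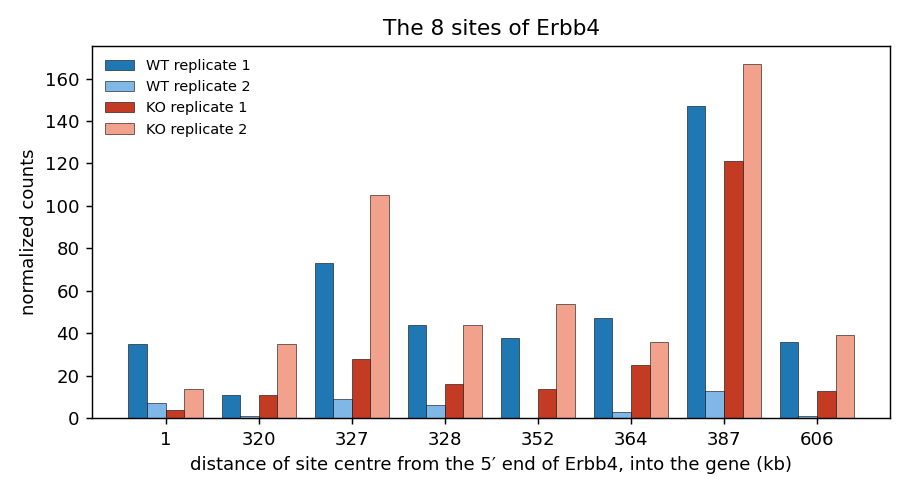
Bars give the normalized counts of the 4 libraries (WT in blues, KO in reds) at each of the 8 Erbb4 sites, ordered by distance of the site centre from the 5′ end of the gene in kb (sites evenly spaced). At the 7 intronic sites WT replicate 2 reads 0 to 13, while the other libraries read 11 to 167.

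Nrg1 encodes neuregulin 1, the ligand of Erbb3 and Erbb4, and lies at chr8:31814551-32884029 on the minus strand (ENSMUSG00000062991.7). It had the most sites of the family, 33, of which 30 lay in its body. Both KO libraries were above both WT libraries at 8 of 33 sites (24.2%, against 14.6% of all sites) and below them at 1. The median difference was 0.29, and 10 of 33 differences were below 0. Without WT replicate 1 the median was 0.06. Summed over the 33 sites, WT had 2372 ± 158 and KO 2951 ± 120 normalized counts (SD, n = 2 each). The sites of 1 gene are not replicates of the genotype, and the spread here is that of 2 lines.

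The single called site of the family was the intronic one whose sequence is printed above, 39.3 kb into the gene (chr8:32844525-32845002). It read 27 and 9 normalized counts in the WT libraries and 138 and 84 in the KO libraries. Both KO values were above both WT values, for a difference of 2.70 (SE 0.58), and each KO library lay well above the WT mean, by 3.05 and 2.35. Leaving out WT replicate 2, KO replicate 1 or KO replicate 2 gave 1.96, 2.34 and 3.05 and ended the call. WT replicate 2 was at least 2-fold below each other library here, as at the intronic Erbb4 sites. This is the site known when the family was chosen, and its value is a description.

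The neighbouring intronic sites showed less. Upstream in the gene, chr8:32849809-32850289 read 67 and 20 in WT and 141 and 30 in KO, and further in, chr8:32832279-32832699 read 19 and 8 in WT and 61 and 11 in KO. At both, KO replicate 1 was high and KO replicate 2 lay among the WT values. Their differences were 0.81 and 1.02, against 2.70 at the called site.

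More sites with the KO libraries above the WT libraries lay far inside the gene. A pair 597 kb from the 5′ end had 210 and 243 in WT and 293 and 286 in KO (chr8:32286545-32287102) beside 47 and 30 in WT and 81 and 66 in KO (chr8:32287324-32287676). The difference was 0.94 (SE 0.37) at the second and 0.36 (SE 0.17) at the first. At the far end of the gene, chr8:31845886-31846265 read 92 and 96 in WT and 119 and 141 in KO.

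The stronger starts of Nrg1 overlapped between genotypes. Nrg1 has several promoters that give different neuregulin isoforms, and its strongest site (chr8:32008461-32009879) lay at an internal start 875 kb into the gene. That site read 367 and 339 in WT and 405 and 362 in KO, overlapping, with a difference of 0.12 (SE 0.14). At the 5′ end, chr8:32883733-32884291 read 54 and 27 in WT and 46 and 29 in KO. The site just upstream (chr8:32884553-32885068) read 33 and 34 in WT and 28 and 26 in KO and was the 1 Nrg1 site with both KO libraries lower, by a difference of -0.30 (SE 0.39) that is smaller than its error. A weak site at another annotated start, 965 kb into the gene (chr8:31918634-31918917), read 23 and 8 in WT and 26 and 35 in KO, both KO libraries higher, with a difference of 1.08 (SE 0.63).

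**Figure D4:**
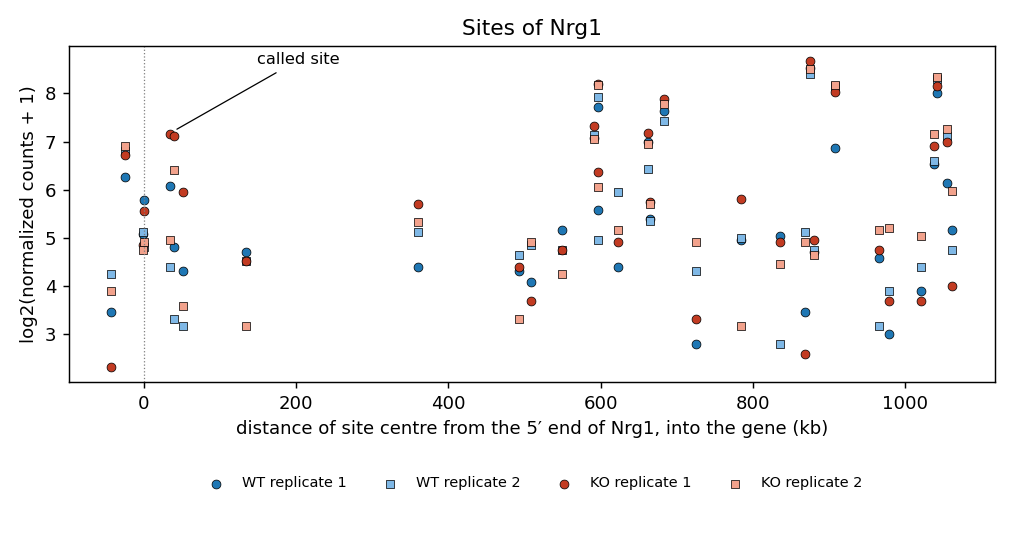
Accessibility (log2 of normalized counts + 1) at the 33 Nrg1 sites against distance of the site centre from the 5′ end of the gene in kb, 1 point per library, WT in blues and KO in reds. At the called site 39.3 kb in, both KO points lie above both WT points, while at the strongest site, 875 kb in, the genotypes overlap.

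Ereg, Areg and Btc encode epiregulin, amphiregulin and betacellulin, ligands of Egfr, and lie together on chromosome 5. Their 18 sites had 9 with both KO libraries below both WT libraries, where 14.3% of all sites did so, and 0 with both above. The median difference of the 18 was -0.52, and 14 of 18 were below 0. Ereg and Areg share 3 of these sites, since they lie within 50 kb of both.

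Ereg lies at chr5:91074622-91093646 on the plus strand (ENSMUSG00000029377.5). Its TSS site (chr5:91073965-91075021) read 331 and 489 normalized counts in WT and 257 and 167 in KO, without overlap, and the difference was -0.95 (SE 0.28). With the libraries scaled to equal totals it was -1.02, and the site was then called lower. An intronic site 8.64 kb into the gene (chr5:91082971-91083564) read 230 and 294 in WT and 182 and 162 in KO, again without overlap. KO replicate 2, the shallowest library, was lowest at both.

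The other Ereg sites were weaker. A site at -2.18 kb from the start (chr5:91072299-91072585) read 56 and 100 in WT and 58 and 18 in KO, so that only KO replicate 2 was clearly low. The second intronic site, chr5:91081491-91081896, read 54 and 93 in WT and 101 and 48 in KO, with KO replicate 1 highest, KO replicate 2 lowest and a difference of -0.02. At 3 of the 11 Ereg sites the difference was above 0. Of the 11, 4 were nearer to the TSS of another gene, Epgn or Areg. The median difference of the Ereg sites was -0.60 with all libraries and -0.29 without WT replicate 2. Summed over 11 sites, Ereg had 1150 ± 268 in WT and 740 ± 149 in KO (SD, n = 2 each).

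Areg lies at chr5:91139599-91148432 on the plus strand (ENSMUSG00000029378.5), and 2 of its 6 sites were nearer to the TSS of Ereg. Its TSS site (chr5:91139331-91139984) read 116 and 89 in WT and 94 and 83 in KO. The genotypes overlapped, and the difference was -0.20 (SE 0.29). The strongest Areg site, 17.4 kb beyond the TSS and downstream of the gene (chr5:91156652-91157261), read 134 and 111 in WT and 101 and 78 in KO without overlap, as did a site between Ereg and Areg (chr5:91109996-91110800), with 105 and 90 in WT and 59 and 62 in KO.

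Btc lies at chr5:91357261-91402994 on the minus strand (ENSMUSG00000082361.6) and had 4 sites. Its TSS site (chr5:91402560-91403160) read 71 and 48 in WT and 24 and 26 in KO. The KO values were close together and below both WT values, and the difference was -1.19 (SE 0.39). An intronic site (chr5:91366925-91367414) read 33 and 69 in WT and 32 and 18 in KO, with a gap of only 1 normalized count between the groups. All 4 summed to 150 ± 6.36 in WT and 78.5 ± 12.02 in KO (SD, n = 2 each), few counts for a gene.

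The sites between these genes did not all follow. Over the whole stretch from the first to the last of the 18 sites there were 27 sites, the 18 among them. Both KO libraries were below at 10 (37.0%, against 14.3% of all sites) and above at 2 (7.41%, against 14.6%). The median difference of the 27 was -0.25. The 18 ligand sites supplied 9 of the 10 and 0 of the 2, so these values do not describe the sites between the genes alone. Between Areg and Btc, chr5:91241540-91242134 read 106 and 120 in WT and 116 and 150 in KO, overlapping. The lowest site between them, chr5:91303004-91303424, read 16 and 46 in WT and 5 and 15 in KO.

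**Figure D5:**
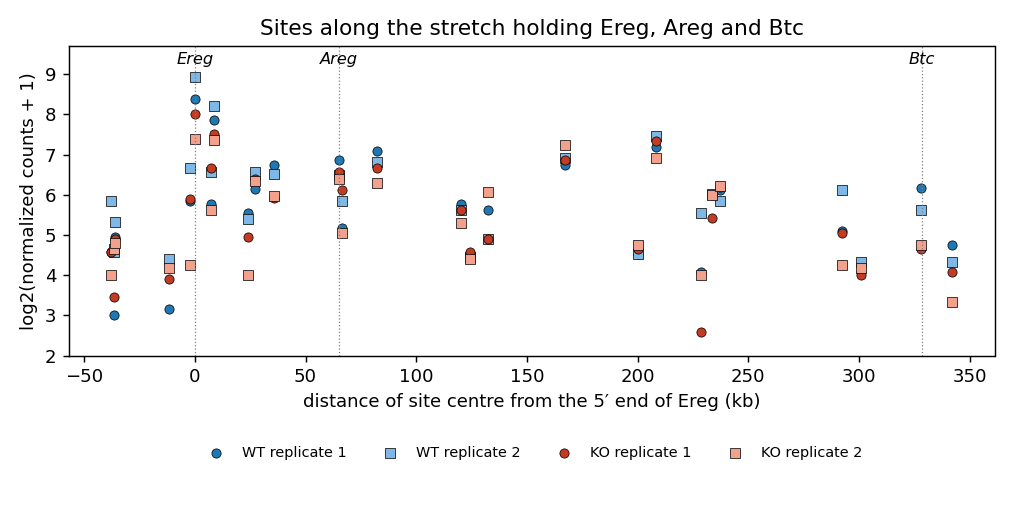
Accessibility (log2 of normalized counts + 1) at the 27 sites of the chromosome 5 stretch against distance from the 5′ end of Ereg in kb, 1 point per library, WT in blues and KO in reds, with dotted lines at the gene starts. The KO points lie below the WT points at the Ereg and Btc starts, and overlap with them at the Areg start.

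Hbegf encodes heparin-binding EGF, a ligand of Egfr and Erbb4. Its start had the highest mean per kb of site in the family over all libraries. In the WT libraries alone the means of Hbegf and Ereg were close, at 389 and 388 normalized counts per kb. Hbegf lies at chr18:36504927-36515805 on the minus strand (ENSMUSG00000024486.6), and 6 of its 13 sites were nearer to other genes. The TSS site (chr18:36515453-36516244) read 315 and 301 in WT and 385 and 280 in KO, with a difference of 0.09 (SE 0.19). The site just upstream of it (chr18:36516403-36516801) read 146 and 120 in WT and 164 and 113 in KO. At both, KO replicate 1 was highest and KO replicate 2 lowest, so that the genotypes overlapped.

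The strongest site of Hbegf, 22.8 kb beyond the TSS and downstream of the gene (chr18:36492473-36493537), read 471 and 539 in WT and 621 and 457 in KO in the same order. A site 1.63 kb into the gene (chr18:36513881-36514474) read 241 and 264 in WT and 240 and 147 in KO, and its separation rests on KO replicate 2. Summed over 13 sites, Hbegf had 2398 ± 54.4 in WT and 2409 ± 435 in KO (SD, n = 2 each).

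Tgfa encodes transforming growth factor alpha, another Egfr ligand, and lies at chr6:86195223-86275719 on the plus strand (ENSMUSG00000029999.14). Its TSS site (chr6:86194928-86195747) read 104 and 59 in WT and 76 and 44 in KO, overlapping, with a difference of -0.43 (SE 0.43). The strongest of its 8 sites, upstream of the gene (chr6:86157118-86157901), read 99 and 62 in WT and 138 and 60 in KO, with a difference of 0.21 (SE 0.47). Within each genotype, replicate 2 was the lower library at both, and the spread between replicates exceeded the difference between genotypes. Over the 8 Tgfa sites, 2 had both KO libraries below both WT libraries, where 14.3% of all sites did so, and 0 had both above, against 14.6%. Their median difference was -0.15 with all libraries and 0.09 without WT replicate 1.

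The distance limit of 50 kb fell between the following sites. The last Nrg1 site inside it, 42.9 kb from the TSS, read 10 and 18 in WT and 4 and 14 in KO, and the first one outside, at 52.1 kb, read 46 and 15 in WT and 55 and 32 in KO. The next site outside for Egfr, at 56.0 kb, read 35 and 79 in WT and 65 and 90 in KO.

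Around 30 further genes of the pathway there were 278 sites, of which 0 were called lower and 0 higher by limma. An unadjusted limma p under 0.05 was found at 8 of them (2.88%, against 3.13% of all sites). Both KO libraries lay below both WT libraries at 33 (11.9%, against 14.3% of all sites) and above at 52 (18.7%, against 14.6%), and the median difference was 0.05. By role, the sites of adaptors and exchange factors such as Shc1, Grb2, Gab1 and Sos1, which link receptors to Ras, had 18 of 69 above and 6 below. The sheddases Adam10 and Adam17 and their regulators Rhbdf1 and Rhbdf2, which release the ligands, had 9 of 36 above and 3 below.

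Against 14.6% of all sites above and 14.3% below, kinases downstream of the receptors had 13 of 82 sites above (15.9%) and 4 below (4.88%). Inhibitors such as Errfi1, Lrig1, Cbl and Dusp6, which limit the signal, had 10 of 63 above (15.9%) and 12 below (19.0%). The ligands outside the member list (Egf, Epgn, Nrg2, Nrg3 and Nrg4) had 2 of 28 above (7.14%) and 8 below (28.6%), with a median difference of -0.24. Sites already counted for a member were left out, so that Epgn kept 1 site.

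In base composition the member sites were close to all sites. The median GC content of the central 300 bases was 47% for members and 48.3% for all sites, 54.7% and 56% within 3 kb of a TSS and 44.7% and 46.3% elsewhere. AP-1 letters stood in 50 of 117 member windows, 42.7% against 37.7% of all sites, and TEAD letters in 40, 34.2% against 24.7%. GC boxes were found in 14.5% of member windows and 17.3% of all, TATA letters in 15.4% and 14.6%, and a CRE in 0.855% and 0.839%. These shares are counts of letters in windows that partly belong to the same gene.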

How the data were processed

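ATAC-Seq was measured in 4 libraries, 2 HAT1 WT and 2 HAT1 KO. Replicates were numbered in accession order, which names libraries only. The authors aligned reads to mm10 with BWA 0.7.12, called peaks with MACS2 2.1.0 and tested them with DESeq2, per the labels and the study methods. The deposited values are a score: the authors scaled the count of each merged region by a factor per library and rounded it to a whole number. Read filters, duplicate handling and the Tn5 offset are not given in the sources used here. The deposited table also holds raw and shrunken log2 fold changes, p-values and adjusted p-values of the authors' comparison, none of which was used. There were 0 unmapped value columns.

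The member genes, gene lists and tests were chosen with earlier results of these data known. Because values were scaled, no count model was used. All 82325 sites, with no filter, were fitted with limma 3.58.1 (R 4.3.3, intensity trend) on log2(value + 1), which understates changes of low sites. Sites were called at p below 0.01 before adjustment with a log2 difference of 1 or more in size, and the adjusted p is Benjamini-Hochberg over all sites. The code was tested on simulated data. Some withheld items are not reported here. Depth was estimated from gaps that scaling leaves among low whole numbers, and whether reads or fragments were counted is not given in the sources used here.

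Genes and the classes of sites came from GENCODE M21, the TSS being the 5′ end of the gene. A site was a promoter site within 3 kb of any annotated TSS. Named sites were those within 1 kb of a member TSS, the strongest site per gene, called sites and the largest differences, and further sites were named after their values were seen. Alternatives were pseudocount 8, equal totals, quantile normalization, a minimum mean of 20, no trend, other site rules and leaving out each library. Python 3.11.15, numpy 2.4.6, pandas 2.3.3 and matplotlib 3.10.9 were used.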

Additional observations from a re-analysis of the deposited data

How the results depend on the processing

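The calls rest on few libraries. Without a trend the called Nrg1 site was lost, leaving 0 sites called higher, and leaving out 1 library gave 0 to 2, the second being the strongest Erbb4 site without WT replicate 1. In those fits the single library of a genotype was assumed to vary like the others. Sites called lower were 1 under equal totals and 1 under quantile normalization, both times the Ereg TSS site, and 0 without any 1 library. Around the pathway genes, 1 site was called lower under pseudocount 8 and 1 under quantile normalization, both times an Nrg3 site, and 1 higher without a trend, with 0 to 1 in each direction on leaving out a library. Rules with 20 kb, with any transcript start or with nearest genes only held 91, 119 and 97 sites and the same counts of calls. Medians moved more: with 20 kb, Areg had -0.20 and Tgfa -0.43, Erbb3 had -0.0046 there and with nearest genes only, pseudocount 8 gave Erbb4 0.72, a minimum mean of 20 gave Tgfa -0.39, and equal totals and quantile normalization gave Erbb3 0.038 and 0.043. Under equal totals the median of Nrg1 was 0.22 and the summed ratio of Erbb2 0.033, and the medians of Erbb2 and Hbegf turned to -0.0031 and -0.028.

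On leaving out 1 library, the median difference ran from -0.51 to -0.056 for Egfr, -0.078 to 0.16 for Erbb2, -0.013 to 0.15 for Erbb3, -0.54 to 3.15 for Erbb4, 0.058 to 0.33 for Nrg1, -0.64 to -0.29 for Ereg, -0.55 to -0.19 for Areg, -0.14 to 0.048 for Hbegf, -1.18 to -0.51 for Btc and -0.55 to 0.09 for Tgfa. The log2 ratio of summed signals ran from -0.37 to 0.062 for Egfr, 0.036 to 0.17 for Erbb2, -0.049 to 0.20 for Erbb3, -0.25 to 3.18 for Erbb4, -0.50 to -0.18 for Areg, -0.19 to 0.18 for Hbegf, -1.10 to -0.79 for Btc, 0.25 to 0.38 for Nrg1, -0.86 to -0.37 for Ereg and -0.53 to 0.24 for Tgfa. Some counts were repeated under alternatives chosen after seeing the data. The 9 chromosome 5 ligand sites with both KO libraries lower became 12 under equal totals, 6 under quantile normalization and 10 to 14 without 1 library. The 8 Nrg1 sites with both higher became 8, 9 and 14 to 17. For both counts, fewer libraries make a separation easier by construction. Under equal totals the median difference of all sites was -0.06, against 0.01 with all values as deposited. Shares of all sites under these alternatives are not given, so the counts cannot be read against the shares of the main setting. The 7 low Erbb4 sites of WT replicate 2 remained 7 in both scalings. The cause of the other changes was not tested. No paired analysis was possible because the groups share fewer than 2 numbers in the labels: 1 number stands in the titles of both WT replicate 1 and KO replicate 2, and what it marks is not given in the sources used here. Read depth is approximate, and in KO replicate 2, the shallowest library, values under 20 rest on few reads.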

Other observations

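Nrg3, a neuregulin of the nervous system, was named after its values were seen. The strongest of its 3 sites (chr14:39381117-39381806) read 138 and 65 normalized counts in WT and 4 and 30 in KO, with a log2 difference of -2.94 (SE 0.88). The second read 40 and 15 in WT and 2 and 5 in KO, and the last 59 and 3 in WT and 4 and 0 in KO, where the genotypes overlapped. Unlike the member sites, these 3 lay in windows of 25 sites with mean differences of -0.65 to -0.68, under the cutoff of -0.58. Each of these windows includes the 3 Nrg3 sites themselves, so their low means are not separate from the values above. Nrg2, another neuregulin, had both KO libraries below both WT libraries at 5 of 13 sites, where 14.3% of all sites did so.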
